A study of Homo sapiens with 62 samples.

Results

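The 42 genes described here encode the machinery of cell division, and were taken by gene name from a fixed list (MKI67, TOP2A, cyclins A2, B1 and B2, CDK1, the Aurora and Polo-like kinases, spindle checkpoint, kinetochore, kinesin, spindle, cytokinesis and anaphase genes, and FOXM1). All 42 were present among the 29794 genes of the read tables. SPC25, a kinetochore subunit, had between 0 and 7 reads in any library and did not pass the filter on low counts, so 41 members were tested. In dividing cells these genes are switched on together in G2 and mitosis and held down in G0 and early G1. The DREAM complex represses them through a promoter element called the CHR (cell cycle genes homology region), and B-MYB with the MuvB core and FOXM1 activates them through the same element, often beside CCAAT boxes bound by NF-Y. Their RNA is widely used as a readout of dividing cells. In bulk RNA, as here, fewer cells of a kind and less RNA per cell cannot be told apart.

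The data were SLAM-seq libraries, in which cells take up 4-thiouridine for 2 h before harvest and newly made RNA is read out as T>C reads, that is, sequencing reads with T to C conversions. AsPC-1 (classical pancreatic ductal adenocarcinoma) and T3M-4 (basal-like) were each 1 cell line in which a lentiviral FKBP12-F36V-FLAG-KLF5 replaced endogenous KLF5 cut by a guide (sgEndogenousKLF5). All 62 libraries carried this genotype and all received 4-thiouridine, so the T>C background of unlabelled RNA is unknown, and no spike-in was used. Each library was counted over 3′ UTR exons.

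AsPC-1 cells were treated for 4 h with the degrader dTAGv-1 (dTAG, 10 libraries, 9 of them used with all reads), its inactive analogue dTAGv-1-NEG (NEG, 10), the RUVBL1/2 ATPase inhibitor CB-6644 (5), the CDK9 inhibitor NVP-2 (4) or the solvent DMSO (5), and for 12 h with CB-6644 (4) or DMSO (4). T3M-4 cells were treated for 4 h with dTAG, NEG, CB-6644, NVP-2 or DMSO (4 libraries each). Libraries of 1 experiment may share a culture, so p-values measure the spread between libraries. In AsPC-1 every NVP-2 library was in batch 2 and every DMSO 4 h library in batch 1, so that batch and treatment cannot be told apart there. In T3M-4 experiment 1 was batch 1 and experiment 2 was batch 2, with every treatment in both.

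A library of AsPC-1 held 2240998 to 18311982 T>C reads among 82676553 to 200298262 in all, and one of T3M-4 held 3714015 to 27982537 among 111132257 to 244524608. KLF5 RNA does not check the degrader labels, since dTAG acts on the protein: its T>C level was 135 to 192 CPM (counts scaled to library size) with dTAG against 71.5 to 143 with NEG in AsPC-1, and 1019 to 1193 against 515 to 619 in T3M-4. The classical markers GATA6, HNF4A and ELF3, summed in all reads, did not overlap between dTAG and NEG. They were at 23.1 to 58.5 CPM with dTAG against 72.6 to 117 with NEG in AsPC-1. In T3M-4 they were at 11.3 to 17.0 CPM against 29.7 to 45.6. The basal-like markers KRT5, KRT6A, KRT17 and TP63 summed to 0.0814 to 4.37 CPM of all reads in AsPC-1 and to 634 to 2229 in T3M-4, where experiment 1 (634 to 1364) and experiment 2 (1623 to 2229) did not overlap. Every count of MKI67, KIF14, TPX2 and CDCA8 was a multiple of 2, so their read numbers overstate the depth behind them.

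The promoters show the element the group is known for. RefSeq promoters (250 bases before to 50 after the annotated start, GRCh38) were found for 36 of the 42 members (AURKA, TTK, TPX2, BIRC5, UBE2C and FOXM1 were not matched). The letters of the CHR, TTTGAA or TTCGAA on either strand, were in 28 of the 36 (77.8%), against 16.6% of all 27305 promoters of the same length. Within 75 bases of the start they were in 25 members (69.4%) against 6.15% of all promoters and 0 of 31 promoters of S phase genes. A list of other mitotic genes held them nearly as often, in 29 of 40 promoters (72.5%), and within 75 bases in 25 (62.5%). The following stretches of 30 bases hold the element in capitals, on the strand of the gene; they are shown for members from different steps of mitosis whose values are described with the controls or with NVP-2.
CCNB2: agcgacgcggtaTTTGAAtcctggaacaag
PLK1: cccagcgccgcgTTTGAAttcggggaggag
CDC20: cgacggttggatTTTGAAggagccaatagg
MKI67: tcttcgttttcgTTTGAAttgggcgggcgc
NUF2: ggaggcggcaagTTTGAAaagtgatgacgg
SGO1: gaggcggaaaatTTCGAAtgtggcggcggt
KIF23: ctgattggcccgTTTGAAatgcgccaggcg
The windows lie at chr15:59105105-59105134 (CCNB2, plus strand), chr16:23678848-23678877 (PLK1, plus), chr1:43358904-43358933 (CDC20, plus), chr10:128126435-128126464 (MKI67, minus), chr1:163321958-163321987 (NUF2, plus), chr3:20186192-20186221 (SGO1, minus) and chr15:69414282-69414311 (KIF23, plus). The element stood upstream of the start in CCNB2, PLK1, CDC20, MKI67 and KIF23, across the start in SGO1, and downstream of it, in transcribed sequence, in NUF2.

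CCAAT was in 29 of the 36 promoters (80.6% against 35.7% of all), and 18 held at least 2 copies (50% against 11.3%). CHR and CCAAT were together in 24 (66.7% against 6.58%). Of the S phase promoters 58.1% held CCAAT and 35.5% at least 2 copies, and of those of other mitotic genes 55% and 30%. The GC box GGGCGG was in 28 members (77.8% against 44.6% of all, 67.7% of S phase and 65% of other mitotic promoters), while the E2F letters TTTCGCGC or TTTGGCGC were in 2 (5.56% against 1.18%, and 11 of 31 S phase promoters, 35.5%). The KLF letters CCACACCC or CCCCACCC were in 5 (13.9% against 13.2% of all promoters). A match is a description of letters and not a bound site. AURKB, CCNA2, CCNB1, CENPE, CKAP2, KIF20A, KIF2C and PTTG1 held neither TTTGAA nor TTCGAA in this window. Other forms of the element were not searched for, so a CHR in these promoters is not excluded.

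The share of a member's reads that carried T>C conversions, called its labelled share here, follows how much of its RNA was made during the 2 h label, as far as conversions were seen. In AsPC-1 controls (19 libraries of NEG or DMSO, at 4 h or 12 h) the mean share of a member ran from 7.34% (FOXM1) to 37.8% (CENPA), with a median over members of 18.9% against 14.7% over all genes with a mean of at least 100 reads. In T3M-4 controls (8 libraries) it ran from 7.31% (PTTG1) to 38.0% (CENPA), with a median of 17.98% against 17.5%. The order of the members was alike in both lines (rank correlation 0.91 over 41 members, a description, beside 0.93 over 10879 genes).

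The 3 highest shares belonged to the same members in both lines. CENPA, the centromere histone, had 26.7, 37.9 and 47.8% (lowest, median and highest library) in AsPC-1 and 27.8, 40.0 and 44.3% in T3M-4. CDCA8, borealin of the chromosomal passenger complex, had 28.7, 34.6 and 51.3% in AsPC-1 and 21.0, 30.2 and 39.5% in T3M-4. SGO1, shugoshin, which protects centromere cohesion, had 26.7, 32.3 and 39.0% in AsPC-1 and 24.7, 29.3 and 37.1% in T3M-4. These ranges overlap, and the order among the 3 is not larger than their spread.

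FOXM1, a transcription factor of late cell cycle genes, had 4.72, 7.55 and 9.54% in AsPC-1 and 5.27, 9.17 and 10.9% in T3M-4. PTTG1, securin, had 7.22, 8.84 and 10.7% in AsPC-1 and 5.74, 6.93 and 9.97% in T3M-4. BIRC5, survivin, was the other low member in AsPC-1 (6.31, 8.83 and 10.4%), and CDC20, the activator of the anaphase-promoting complex, in T3M-4 (6.82, 8.55 and 11.7%). Every library of these low members was below every library of CENPA, CDCA8 and SGO1 in the same line. UBE2C, the ubiquitin-conjugating enzyme that works with CDC20 to end mitosis, was far from it, with a mean of 28.0% ± 2.50 (SD, n = 19) in AsPC-1 and 25.3% ± 2.77 (n = 8) in T3M-4, where CDC20 had 10.2% ± 1.72 and 8.97% ± 1.74.

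By role, the kinetochore and centromere members had a median share of 27.8% in AsPC-1 and 22.3% in T3M-4, the mitotic kinases PLK1, AURKA, AURKB and TTK 23.3% and 18.3%, the kinesin motors 20.6% and 18.7%, and the cyclins with CDK1 17.4% and 18.4%. CCNB1 (cyclin B1) had 16.9% ± 2.80 and 18.4% ± 2.01, and its kinase CDK1 16.2% ± 2.68 and 18.4% ± 3.39. More T in a 3′ UTR gives more places for a conversion: the median T content was 35.7% for members against 30.1% for all genes with a share in AsPC-1. Among members the share showed no rank correlation with T content (0.02 in AsPC-1 and 0.05 in T3M-4, 41 members), against 0.36 and 0.30 over all genes. How much of the gap between members and all genes comes from T content was not tested.

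**Figure D1:**
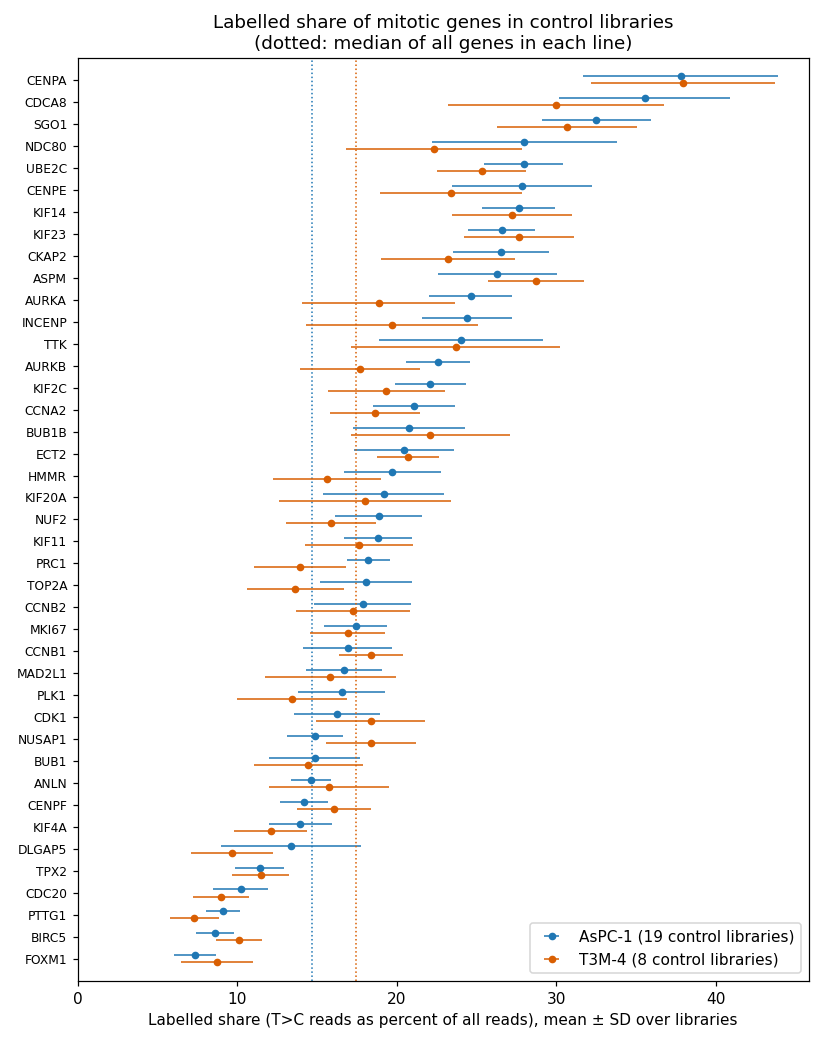
Labelled share (percent of a gene's reads with T>C conversions) of each of the 41 tested mitotic genes in the control libraries of AsPC-1 and T3M-4, as mean (points) and SD (bars) over libraries, with dotted lines at the median over all genes. CENPA, CDCA8 and SGO1 sit at the top in both lines (means of 29.99 to 38.0%), and FOXM1 and PTTG1 at the bottom (7.31 to 9.12%).

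The level of the members differed between the lines as often as that of other genes, but mostly in 1 direction. Of 41 members, 25 were higher and 4 lower in T3M-4 than in AsPC-1 among the 4 h controls in all reads (edgeR quasi-likelihood, Benjamini-Hochberg adjusted over all genes, threshold 0.05), where 38.9% of all genes were called higher and 33% lower. The median log2 difference was 0.54 over members and 0.08 over all genes. Each line is 1 line, so these calls describe the 2 cultures and not the subtypes. CENPE, a kinetochore motor (log2 difference 1.501), DLGAP5, a spindle protein (1.51), CCNB2 (1.23) and FOXM1 (1.15) were among those higher in T3M-4, and KIF4A, a chromosome-bound motor (-1.004), MKI67, the Ki-67 antigen (-0.72), CDK1 (-0.56) and KIF11, the motor that separates spindle poles (-0.35), were the 4 lower. With either T3M-4 experiment alone the counts were 20 higher and 5 lower (experiment 1) and 26 and 4 (experiment 2). The share of all genes called in these fits is not given, so the counts are not set against other genes.

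In T>C reads 15 members were higher and 7 lower in T3M-4 (37.4% and 29.8% of all genes), with a median log2 difference of 0.09 against 0.10. The relative labelled share, in which each library's labelled share is centred on its median gene, was lower in T3M-4 for 28 members and higher for 0 of 41 (15.4% and 28.7% of all genes; limma, adjusted over all genes). Its median difference was -0.35 on the log2 odds scale over members against 0.12 over all genes. AURKA, Aurora A (-0.70), NDC80, the microtubule-binding kinetochore subunit (-0.68), PRC1, which bundles the central spindle (-0.68), and PLK1 (-0.61) were among the lower. Without centring, 12 members were lower and 1 higher (7.17% and 39.7%), with a median of -0.15 against 0.32. These calls pool the 2 T3M-4 experiments. Summed over members, the labelled share was 18.4 to 20.7% in experiment 1 and 13.7 to 15.8% in experiment 2. In the AsPC-1 4 h controls it was 16.2 to 21.0%, which holds the range of experiment 1. The part of the experiment in the share difference between the lines was not tested.

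The median spread between control libraries of 1 line was lower for the members than for all genes, which were not matched for read depth. Single members lay far apart: by SD among all genes in T3M-4, CDC20, UBE2C and AURKB were at percentiles 96.9, 95.3 and 87.0, and KIF11 at 0.50. The SD of log2 CPM in all reads over 19 AsPC-1 controls had a median of 0.31 over members and 0.38 over all genes, and over 8 T3M-4 controls 0.26 and 0.33. The least variable members in AsPC-1 were NUSAP1, a microtubule-bundling protein (0.16), PRC1 (0.17) and TTK, the MPS1 kinase (0.18), and in T3M-4 KIF11 (0.07), NUSAP1 (0.11) and CDK1 (0.12). CDC20 varied most in both lines (0.62 in AsPC-1 and 0.94 in T3M-4), with UBE2C (0.50 and 0.86) and either INCENP, the scaffold of the passenger complex (0.52 in AsPC-1), or AURKB, its kinase (0.66 in T3M-4).

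The levels of the other members of a panel with 1 or 2 genes per role are given as lowest, median and highest control library, in CPM of all reads. Reads were counted at 3′ ends and scaled within each line, so levels of different genes are not compared and the lines are compared by their joint fit. CCNB1 was at 29.9, 40.2 and 68.8 CPM in AsPC-1 and at 73.6, 81.0 and 96.6 in T3M-4. CDK1 was at 82.4, 112 and 166 CPM in AsPC-1 and at 76.6, 87.3 and 97.4 in T3M-4. In the joint fit CCNB1 was higher in T3M-4 (log2 difference 0.93) and CDK1 lower, as given with the lines.

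PLK1, which drives mitotic entry and centrosome maturation, was at 24.5, 40.1 and 64.9 CPM in AsPC-1 and at 26.7, 55.7 and 84.7 in T3M-4. AURKA was at 104, 168 and 232 CPM, and at 151, 219 and 271. TPX2, which activates AURKA on the spindle, was at 36.7, 56.8 and 91.7 CPM, and at 55.7, 98.8 and 134. TPX2 was called higher in T3M-4 (0.68), and PLK1 (0.29) and AURKA (0.24) did not pass the test. BUB1, a checkpoint kinase (11.0, 16.2 and 28.2 CPM, and 12.4, 16.3 and 19.1), NDC80 (1.26, 1.80 and 3.37, and 1.98, 2.97 and 4.79) and CENPF, a centromere protein (79.1, 102 and 135, and 83.4, 106 and 122) had differences of -0.07, 0.61 and -0.07, and of these only NDC80 passed the test.

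KIF11 was at 38.2, 50.3 and 85.6 CPM in AsPC-1 and at 41.5, 43.6 and 47.3 in T3M-4. KIF20A, the motor of the central spindle, was at 3.90, 6.43 and 9.57 CPM, and at 6.80, 14.9 and 21.6. BIRC5 was at 52.8, 72.5 and 91.3 CPM, and at 101, 148 and 188. KIF20A (1.01) and BIRC5 (0.94) were called higher in T3M-4, as was TOP2A, topoisomerase II alpha (0.91), which was at 24.3, 30.04 and 40.1 CPM, and at 43.5, 65.2 and 71.7. FOXM1 was at 27.3, 35.6 and 58.5, and at 62.7, 91.5 and 110. MKI67 was at 44.8, 58.3 and 117 CPM, and at 30.2, 40.5 and 50.5. CDC20 ran from 12.7 to 65.6 CPM (median 37.3) and UBE2C from 105 to 435 (median 241) over the AsPC-1 controls, and from 24.5 to 110 (median 70.6) and 123 to 492.5 (median 305) over those of T3M-4.

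In T3M-4 the variation followed the experiment. Comparing the 4 controls of experiment 2 with the 4 of experiment 1, with the kind of control as a term, 22 of 41 members were higher and 6 lower in all reads, where 19% of all genes were called higher and 19.4% lower. The median log2 difference was 0.36 over members, of which 30 were above 0, and -0.06 over all genes. The members' summed level was 2036 to 2315 CPM in experiment 1 and 3079 to 3162 in experiment 2, and their summed labelled share 18.4 to 20.7% and 13.7 to 15.8%. Experiment and batch are the same split, and the basal-like markers moved with it (860 to 1364 CPM in the controls of experiment 1 and 1897 to 2110 in those of experiment 2). The part of either in these differences was not tested.

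UBE2C was at 177, 159, 174 and 123 CPM of all reads in experiment 1 and at 464, 433, 492.4 and 492.5 in experiment 2. The groups did not overlap, and the log2 difference was 1.56 ± 0.13 (SE; edgeR adjusted p = 2.85e-05). CDC20 was at 47.1, 24.5, 37.4 and 24.9 CPM in experiment 1 and at 103, 94.1, 102 and 110 in experiment 2 (1.60 ± 0.20, edgeR adjusted p = 0.000255). AURKB was at 49.5, 73.0, 51.9 and 48.3 CPM against 129, 124, 116 and 131 (1.16), and PLK1 at 26.7, 50.5, 45.1 and 30.2 against 75.4, 84.7, 78.8 and 60.9 (0.96). No control library of experiment 1 reached any of experiment 2 for these 4 genes.

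CCNA2, cyclin A2, which acts from S phase to early mitosis, was lower in experiment 2 among these controls. It was at 31.5, 31.0, 33.0 and 28.98 CPM in experiment 1 and at 23.3, 24.6, 22.8 and 21.6 in experiment 2 (-0.44, edgeR adjusted p = 0.00375). NDC80 (-0.68), SGO1 (-0.61), ECT2, the cytokinesis exchange factor (-0.45), KIF23, a central spindle motor (-0.45), and KIF14, a motor of cytokinesis (-0.34), were the other 5 members that were lower in experiment 2. By role, anaphase entry (CDC20, UBE2C, PTTG1) and the passenger complex (BIRC5, CDCA8, INCENP) had 3 of 3 members higher, the mitotic kinases 3 of 4, the kinesins 2 higher and 2 lower of 6, and cyclins with CDK1 1 higher and 1 lower of 4. CCNB1, CDK1, KIF11 and CENPF did not pass the test, with log2 differences of -0.04, 0.00, -0.13 and 0.18.

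In T>C reads 10 members were higher and 4 lower in experiment 2 (11.8% and 9.55% of all genes), with a median of 0.08 against -0.04. UBE2C (1.54), CDC20 (1.39), TPX2 (0.88) and AURKB (0.89) were among the higher ones, and NDC80 (-0.90), SGO1 (-0.70), CCNA2 (-0.58) and KIF23 (-0.50) were the lower. The differences in T>C and in all reads had a rank correlation of 0.95 over 41 members, which share libraries and depth. With the dTAG and CB-6644 libraries added (16 libraries, chosen after seeing the data), 26 were higher and 2 lower in all reads (21.1% and 23% of all genes) and 15 and 3 in T>C reads (15.7% and 16.3%). In all reads NDC80 (-0.49) and SGO1 (-0.42) were the 2 lower, while CCNA2 (-0.24), ECT2 (-0.23), KIF23 (-0.14) and KIF14 (-0.15) did not pass the test with these libraries.

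**Figure D2:**
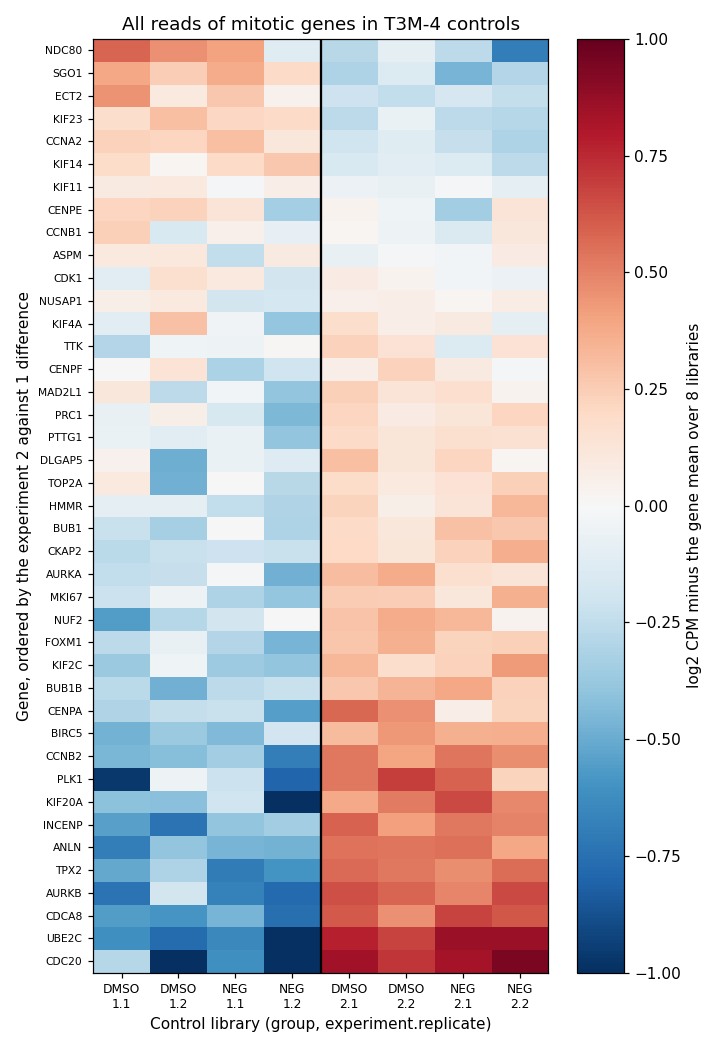
Heat map of all reads in the 8 T3M-4 control libraries (columns, experiment 1 left of the line and experiment 2 right of it), with colour for the log2 CPM minus the mean of the gene (clipped at -1 and 1). The 41 mitotic genes are ordered by the difference between the experiments, from NDC80 and SGO1 at the top (-0.68 and -0.61) to UBE2C and CDC20 at the bottom (1.56 and 1.60).

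Other genes of the cell cycle were called in the same comparison of T3M-4 experiments in all reads, where 19% of all genes were higher and 19.4% lower. Of 47 other mitotic genes 27 were higher and 5 lower, among them FAM83D (1.74) and TACC3 (1.36), both spindle proteins. Of 35 S phase genes 10 were higher and 9 lower, with a median of -0.05. Among 18 regulators of cell cycle promoters 7 were higher and 3 lower: MYBL2, which encodes B-MYB, rose by 2.55 (edgeR adjusted p = 0.000108), TFDP1, the E2F partner, by 1.22, and E2F4, the E2F of the DREAM complex, fell by 0.91 on the log2 scale. Members with CHR letters had a median difference of 0.30 (27 members) and those without 0.38 (8).

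AsPC-1 NEG libraries of experiments 1 to 3 gave 0 of 41 members called by edgeR in either measure (0.0078% of genes in T>C reads and 0.614% in all reads), with 4 and 3 members at an unadjusted p under 0.05 and PTTG1 the smallest. NEG against DMSO at 4 h, which sets the inactive analogue against solvent, gave 0 members in both lines and both measures by edgeR, as it did for all genes (0%), with 7 members at an unadjusted p under 0.05 in T>C reads and 4 in all reads in AsPC-1, and 1 and 1 in T3M-4.

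The degrader asks whether losing KLF5 changes division genes within 4 h. In AsPC-1 0 of 41 members were called in T>C reads by edgeR, where 2.4% of all genes were (DESeq2 also 0). At an unadjusted p under 0.05 there were 5 higher and 1 lower. The median log2 difference was 0.13 over members, 31 of them above 0, and 0.03 over all genes, but scaled to the total of all reads it was -0.11, with 7 members above 0, against -0.22 over all genes. The median standard error of a member was 0.15. In simulated counts of this design the T>C test recovered 20.9% of log2 changes of 0.5 in either direction and 74.6% of changes of 1. These rates are for genes drawn at random from all genes, and the rate for members alone was not tested.

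CCNB2, cyclin B2, had the smallest p: it was at 33.6, 43.8 and 52.1 CPM of T>C reads (lowest, median, highest of 10) with NEG and at 39.6, 56.6 and 66.4 with dTAG. The groups overlapped, with 7 of 10 dTAG libraries above all NEG libraries, and the difference was 0.29 ± 0.11 (edgeR adjusted p = 0.207). CDK1 was at 151, 186 and 210 CPM with NEG and at 152, 211 and 292 with dTAG (0.29). PLK1 was at 52.2, 82.3 and 128 CPM with NEG and at 38.7, 67.8 and 105 with dTAG (-0.35).

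CDC20 was the member whose call depended on pairing. It was at 16.025, 41.4 and 55.7 CPM of T>C reads with NEG and at 13.9, 25.9 and 40.6 with dTAG. The groups overlapped, and the difference was -0.51 ± 0.23 (edgeR adjusted p = 0.356). Libraries of the same number deviated together, although the own number was the best match for only 3 of 10, and with the replicate block the same difference had an SE of 0.11 and an adjusted p of 0.0068 in edgeR, the only member called among 867 of 11696 genes (7.41%). CDC20 was also the member that varied most between AsPC-1 controls.

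In all reads 0 members were called with dTAG in AsPC-1 by edgeR (0.797% of all genes, 3 members at an unadjusted p under 0.05, DESeq2 0), and KIF20A had the smallest p (0.26 ± 0.10, edgeR adjusted p = 0.475). The labelled share was lower with dTAG in 23 of 41 members by limma (42% of all genes) and higher in 0 (0.0522% of all genes). The median difference was -0.29 over members, no further from 0 than the -0.33 over all genes, on the log2 odds scale. Summed over members it was 18.5% ± 1.33 (SD, n = 10) with NEG and 15.98% ± 1.08 (n = 9) with dTAG. CDC20 again had the smallest p, with 6.94, 10.6 and 12.2% with NEG and 5.42, 6.71 and 8.35% with dTAG (-0.62 ± 0.12, limma adjusted p = 0.00134). Without experiment 1 the count of members with a lower share was 0, and without experiment 2 it was 8. Relative to each library's median gene, 0 members were called by limma (1.15% of all genes, 3 members at an unadjusted p under 0.05).

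In T3M-4 0 of 41 members were called with dTAG in T>C reads by edgeR (0.834% of all genes; DESeq2 0; 0 at an unadjusted p under 0.05), with a median of 0.04 against 0.01 and a median standard error of 0.25. With the replicate block 0 members were called in T>C reads too, beside 298 of 13424 genes (2.22%). In simulated counts of the design without a block, the T>C test recovered 7.5% of log2 changes of 1 in either direction. For changes of 2 it recovered 69.7%, so smaller changes could go uncalled. In all reads 0 members were called as well (edgeR, 0.0191% of all genes, 0 at an unadjusted p under 0.05, DESeq2 0). In T>C reads PRC1 had the smallest p. It was at 85.7, 56.7, 70.2 and 89.4 CPM of T>C reads with NEG and at 84.5, 90.2, 90.8 and 107 with dTAG, groups that overlap (0.30 ± 0.19, edgeR adjusted p = 0.942). In the labelled share and the relative labelled share 0 members were called by limma as well (0.262% and 0.596% of all genes, 1 and 1 members at an unadjusted p under 0.05). The test of the difference between the lines gave 0 members (edgeR, 0.0426% of all genes, 0 at an unadjusted p under 0.05). Scaled to all reads the median in T3M-4 was 0.15 over members and 0.11 over all genes.

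Beside the members, CDKN1A, the p21 inhibitor of cyclin-dependent kinases and a gene of the regulator list, fell by 1.60 with dTAG in T>C reads of AsPC-1 (edgeR adjusted p = 0.00154). Of 47 other mitotic genes 1 was higher and 1 lower, where 2.4% of all genes were called in either direction. These were WEE1, the kinase that holds CDK1 inactive (0.55, adjusted p = 0.0269), and CDC25B, the phosphatase that activates CDK1 (-0.74, adjusted p = 0.0248), both by edgeR. Of 35 S phase genes 0 were called in T>C reads by edgeR, with 3 lower at an unadjusted p under 0.05.

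**Figure D3:**
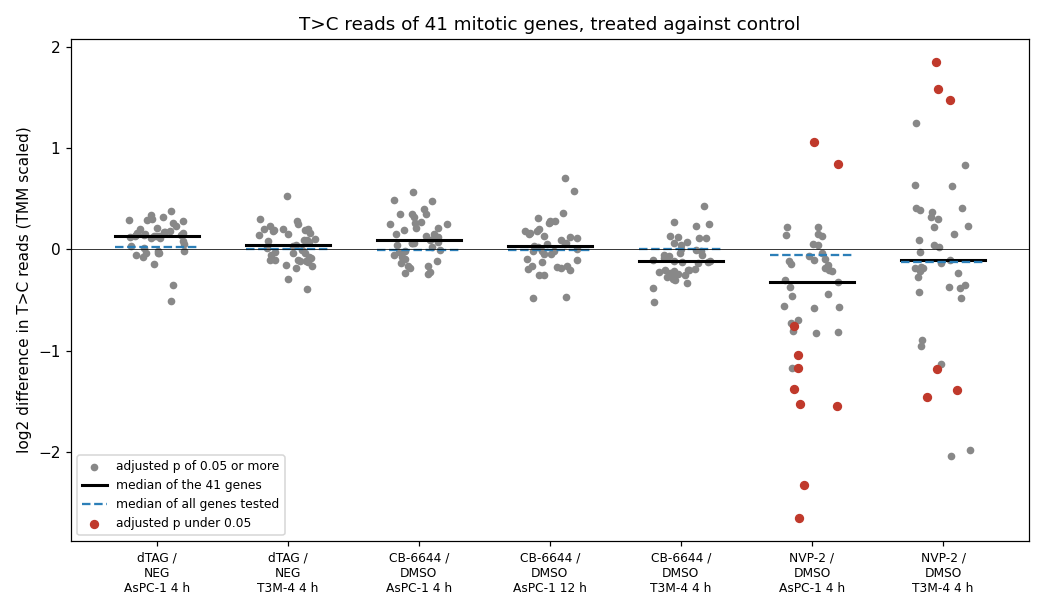
Log2 difference in T>C reads (scaled to T>C reads) of 41 mitotic genes in each treatment against its control, with 1 point per gene, a solid bar at their median and a dashed bar at the median of all genes tested. Red points, past the threshold, are in the NVP-2 columns (10 members in AsPC-1 and 6 in T3M-4) and in none of the dTAG and CB-6644 columns.

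CB-6644 asks whether RUVBL1/2 ATPase activity matters for the same genes. In T>C reads 0 of 41 members were called by edgeR in AsPC-1 at 4 h, in AsPC-1 at 12 h or in T3M-4 at 4 h, where 0% of all genes were called in each (DESeq2 also 0 in each; 1, 1 and 0 members at an unadjusted p under 0.05). With the replicate block the counts were 0 as well, for members and for all genes. In simulated counts of the designs without a block, the T>C test recovered 29.9%, 7.5% and 4.5% of log2 changes of 1 in either direction. For changes of 2 it recovered 89.4%, 77.3% and 83.3%, so smaller changes could go uncalled. The median log2 difference over members was 0.10, 0.03 and -0.11, against -0.01, -0.01 and 0.00 over all genes. Scaled to the total of all reads it was -0.09 over members and -0.19 over all genes in AsPC-1 at 4 h. Within T3M-4 experiment 1 it was -0.38 over members (scaled to T>C reads), and within experiment 2 it was -0.01.

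The member of smallest p in AsPC-1 at 4 h was CCNB2, at 37.7, 41.3, 40.7, 45.2 and 44.6 CPM of T>C reads with DMSO and 65.2, 55.0, 39.9, 48.0 and 57.9 with CB-6644. The groups overlapped at 1 CB-6644 library (0.34 ± 0.16, edgeR adjusted p = 0.979). In T3M-4 it was CDK1, at 139, 152, 126 and 123 CPM with DMSO and 79.7, 91.6, 110 and 133 with CB-6644, with 1 CB-6644 library inside the DMSO range (-0.38 ± 0.20, edgeR adjusted p = 0.994). At 12 h in AsPC-1 it was KIF20A, at 9.90, 13.4, 12.3 and 6.25 CPM with DMSO and 22.6, 14.1, 14.2 and 17.4 with CB-6644, groups that did not overlap (0.71 ± 0.29, edgeR adjusted p = 0.998).

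KIF20A did not overlap in all reads at 12 h either, at 5.88, 6.59, 5.66 and 4.995 CPM with DMSO and 11.7, 8.19, 8.32 and 10.1 with CB-6644 (0.73 ± 0.19, edgeR adjusted p = 1). In all reads 0 members were called by edgeR after CB-6644 in AsPC-1 at 4 h, in AsPC-1 at 12 h or in T3M-4 at 4 h (0%, 0% and 0.0127% of all genes, 1 member at an unadjusted p under 0.05 in each, DESeq2 0 in each). The labelled share at 4 h in AsPC-1 had 0 members called by limma (2.19% of all genes) and 11 at an unadjusted p under 0.05, all lower, with a median of -0.26 against -0.27 over all genes. At 12 h 0 members were called in the labelled share or the relative labelled share by limma (0.0168% and 0.0421% of all genes, 0 members at an unadjusted p under 0.05 in either). The tests of the difference between lines and between 12 h and 4 h gave 0 members by edgeR (0% of all genes each, 1 and 0 members at an unadjusted p under 0.05).

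NVP-2 inhibits CDK9, the kinase that releases paused RNA polymerase II, and with it the members lost most of their labelled reads. The labelled share was lower in 41 of 41 members in both lines by limma, where 95.9% of all genes were lower and 0.0175% higher in AsPC-1 and 93% lower and 0.00803% higher in T3M-4. Summed over members it was 19.3% ± 1.88 (SD, n = 5) with DMSO and 1.58% ± 0.28 (n = 4) with NVP-2 in AsPC-1, and 17.1% ± 3.73 (n = 4) and 2.02% ± 0.43 (n = 4) in T3M-4. The median difference was -3.99 over members against -3.41 over all genes in AsPC-1 and -3.44 against -3.60 in T3M-4, on the log2 odds scale. A member had a median of 4 to 544 T>C reads over the NVP-2 libraries in AsPC-1 and of 5 to 1316 in T3M-4, and 15 and 5 of 164 values were under 10 reads.

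**Figure D4:**
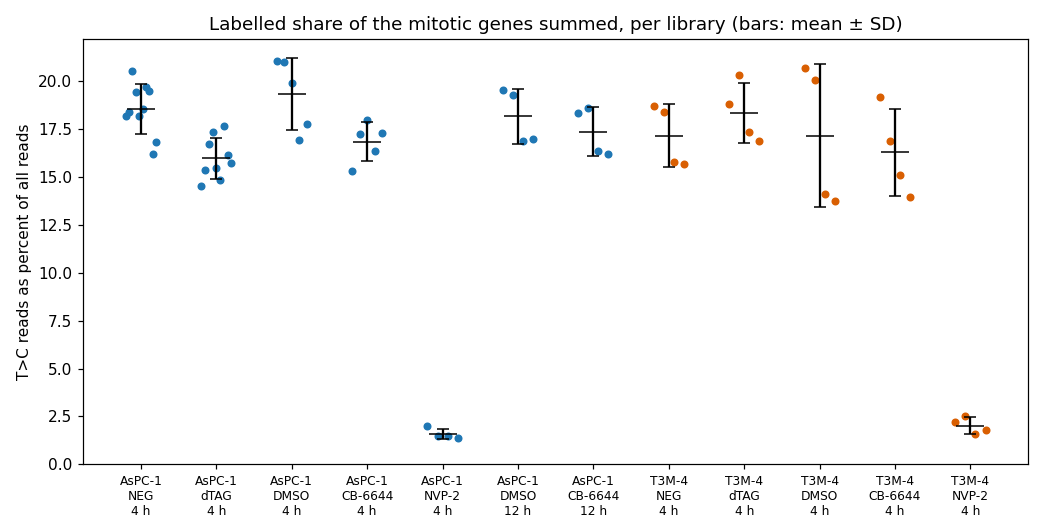
Labelled share summed over the mitotic genes (percent of their reads with T>C conversions) in each library (points), by treatment group, with mean and SD. The 8 NVP-2 libraries sit between 1.38 and 2.51%, and all other libraries at or above 13.7%.

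In the NVP-2 libraries 1.35 to 2.80% of all reads carried T>C conversions. How much of this is background of unlabelled RNA was not tested, since every library was labelled. The T>C comparison scaled to T>C reads tells which members kept more or less of the remaining T>C reads than other genes. Scaled to the total of all reads instead, the median difference was -3.54 over members against -3.26 over all genes in AsPC-1 and -3.15 against -3.09 in T3M-4, and all 41 members were lower in both lines. In what follows higher and lower are relative to the other genes' T>C reads. In AsPC-1 2 members were higher and 8 lower by edgeR (12.9% and 17.6% of all genes), with a median of -0.32 against -0.05. In T3M-4 3 were higher and 3 lower (12.4% and 14.2%), with a median of -0.11 against -0.12. With the experiment as the block 4 were higher and 4 lower there (14.4% and 18.1% of all genes). With the replicate block 4 were higher and 4 lower as well (10.8% and 13.4%).

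AURKA and CDK1 were relatively lower in both lines. AURKA was at 233, 299, 340, 343 and 358 CPM of T>C reads with DMSO and 95.2, 77.1, 167 and 97.0 with NVP-2 in AsPC-1, and at 267, 242, 285 and 255 against 107, 91.7, 112 and 91.2 in T3M-4. Neither pair of groups overlapped (-1.53 ± 0.26, edgeR adjusted p = 0.00138, and -1.38 ± 0.23, edgeR adjusted p = 0.00195). CDK1 was at 200, 149, 197, 152 and 207 CPM against 103, 53.2, 42.3 and 80.5 in AsPC-1, and at 109, 117, 103 and 99.1 against 40.0, 28.6, 26.8 and 61.3 in T3M-4, again without overlap (-1.38 ± 0.28 and -1.45 ± 0.32).

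KIF23 was also lower in both lines, with a log2 difference of -0.76 in AsPC-1. In T3M-4 it was at 245, 271, 167 and 207 CPM with DMSO and 140, 63.9, 128 and 58.6 with NVP-2, without overlap (-1.19 ± 0.35, edgeR adjusted p = 0.0277). SGO1 in AsPC-1 was at 22.6, 20.9, 11.8, 22.6 and 21.97 CPM against 7.18, 4.54, 1.22 and 2.76, without overlap (-2.33 ± 0.47, edgeR adjusted p = 0.00335). The other members lower in AsPC-1 were INCENP (-2.65), PLK1 (-1.54), TTK (-1.17) and UBE2C (-1.04). The differences of INCENP and SGO1 rest on few reads: over all AsPC-1 libraries their lowest T>C counts were 2 and 3.

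CCNB2 was relatively higher in both lines. It was at 43.8, 52.8, 83.3 and 70.9 CPM of T>C reads with DMSO and 148, 143, 225 and 389 with NVP-2 in T3M-4 (1.85 ± 0.38, edgeR adjusted p = 0.00577). In AsPC-1 it was at 31.5, 34.2, 33.6, 37.6 and 37.3 CPM against 132, 39.6, 58.5 and 60.1 (1.06 ± 0.32, edgeR adjusted p = 0.0257). The groups did not overlap in either line, but 1 AsPC-1 library held much of the difference: without it the difference was 0.58 and not called. Under the scaling to all reads CCNB2 was lower in both lines.

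MKI67 was higher in AsPC-1, at 85.0, 66.6, 130, 82.9 and 96.3 CPM with DMSO and 142, 162, 171 and 185 with NVP-2 (0.84 ± 0.23, edgeR adjusted p = 0.0151). Against NEG of experiment 3, which was in the same batch as NVP-2, 9 members were lower and 0 higher (15.7% and 12.7% of all genes), and MKI67 (0.72) and CCNB2 (1.03) did not pass the test. In T3M-4 NUF2, the NDC80 partner at the kinetochore, was at 47.7, 58.7, 76.5 and 77.4 CPM against 80.2, 139, 255 and 248.9 (1.47 ± 0.39, edgeR adjusted p = 0.0169), and CENPA at 19.9, 18.5, 29.9 and 33.6 against 26.3, 37.4, 144 and 97.6 (1.58 ± 0.52, edgeR adjusted p = 0.044). NUF2 did not overlap. CENPA overlapped over both experiments together, but not within experiment 1 (26.3 and 37.4 with NVP-2 against 19.9 and 18.5 with DMSO). Within experiment 2 it did not overlap either (144 and 97.6 against 29.9 and 33.6). NUF2 and CENPA were lower when scaled to all reads, as was MKI67 in AsPC-1.

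The relative labelled share takes each gene's own RNA level out of this comparison. In AsPC-1 1 member was higher and 11 lower by limma (17.3% and 12.3% of all genes), with a median of -0.51 against 0.07. In T3M-4 4 were higher and 1 lower (14.4% and 12.3%), with a median of 0.03 against -0.13. With the replicate block 3 were higher and 1 lower there (11.4% and 9.17% of all genes). With the experiment as the block, added after seeing the data, 5 were higher and 2 lower (15.9% and 13.8%). The difference between the lines was called for 1 member only, CKAP2 (1.56% of all genes were called higher in T3M-4 and 2.91% lower).

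UBE2C in AsPC-1 had a labelled share of 29.97, 31.9, 27.8, 24.0 and 25.1% with DMSO and 1.90, 1.77, 1.25 and 1.26% with NVP-2, the smallest p of the relative share (-1.15 ± 0.12, limma adjusted p = 0.000208). SGO1 (-2.30), PLK1 (-1.36, with 0.60, 0.86, 0.47 and 0.89% left), BIRC5 (-1.07), AURKA (-0.78), DLGAP5 (-1.57), CDK1 (-0.93) and INCENP (-1.62) were lower as well. MKI67 was the member called higher, with 15.5 to 19.1% with DMSO and 4.51, 3.35, 3.71 and 2.69% with NVP-2 (0.90 ± 0.15, limma adjusted p = 0.00212).

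In T3M-4 CCNB2 (1.87 ± 0.33, limma adjusted p = 0.00376), NUF2 (1.43), KIF4A (1.31, not called with the replicate block) and TPX2 (1.11) had a higher relative share, and SGO1 a lower one (-2.88 ± 0.83, limma adjusted p = 0.0311). SGO1 had 34.5, 37.1, 28.0 and 24.7% with DMSO and 2.37, 2.64, 0.0722 and 0.0812% with NVP-2. The last 2 values rest on 1 T>C read of 1386 and 1 of 1231 reads, from experiment 2. Leaving out any 1 DMSO library, or either of these 2 NVP-2 libraries, SGO1 did not pass the test. The relative differences of the members had a rank correlation of 0.69 between the lines (41 members, separate controls), with 19 below 0 and 5 above 0 in both.

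**Figure D5:**
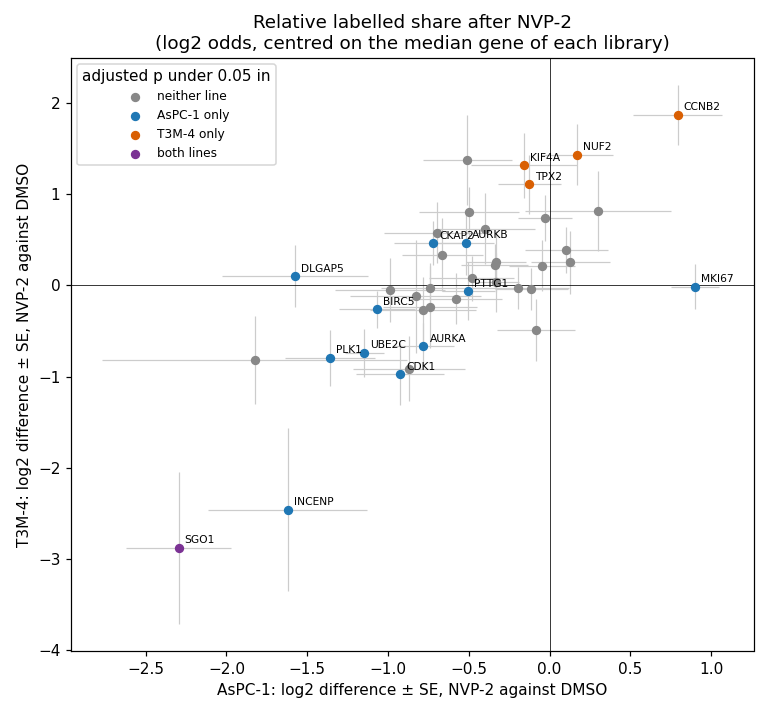
Difference in relative labelled share after NVP-2 (log2 odds with SE, centred on each library's median gene) of 41 mitotic genes in AsPC-1 (x axis) and T3M-4 (y axis), with colour for the line in which the member passed the threshold. SGO1, which had few T>C reads after NVP-2, is low in both lines (-2.30 and -2.88). MKI67 is high in AsPC-1 (0.90) and CCNB2 in T3M-4 (1.87).

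In T>C reads the test of the difference between the lines gave 0 members by edgeR (0.851% of all genes; 4 at an unadjusted p under 0.05; MKI67 -1.29, adjusted p = 0.0874). The same test on the relative labelled share, added after seeing the data, gave 1 member, higher in T3M-4 (1.56% of all genes were higher and 2.91% lower): CKAP2, a spindle protein, was at 28.8, 30.7, 26.2, 24.8 and 25.1% with DMSO and 2.43, 1.69, 2.59 and 1.33% with NVP-2 in AsPC-1, and at 27.5, 27.5, 18.4 and 18.9% and 3.97, 5.504, 2.47 and 2.83% in T3M-4 (difference 1.19 ± 0.31, limma adjusted p = 0.037).

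In all reads few members passed the test over the 4 h of NVP-2. No spike-in was used, so higher and lower here are relative to the reads of other genes and not amounts of RNA. The differences had a rank correlation with the labelled share in controls of -0.55 in AsPC-1 and -0.39 in T3M-4 (41 members, a description with DMSO libraries on both sides). NEG of experiment 3 was not used as a control in all reads. In AsPC-1 2 members were higher and 0 lower by edgeR (3.43% and 8.39% of all genes). BUB1 was at 10.0, 14.2, 15.2, 17.1 and 18.3 CPM with DMSO and 23.1, 26.4, 25.4 and 27.2 with NVP-2, without overlap (0.77 ± 0.19, edgeR adjusted p = 0.0242). TPX2 was at 41.2, 48.9, 36.8, 48.9 and 33.7 CPM against 49.4, 63.7, 72.9 and 76.8, also without overlap (0.65 ± 0.19, edgeR adjusted p = 0.0463). DESeq2 called 5 members, and leaving out 1 library at a time gave 0 to 5, with the share of all genes not given for either. In T3M-4 0 members were called by edgeR (5.16% of all genes; 2 members lower at an unadjusted p under 0.05; DESeq2 0), KIF23 having the smallest p (-0.65, edgeR adjusted p = 0.126). Treated and control libraries shared experiment and batch there, and with the replicate block 3 members were higher and 1 lower (7% and 9.77% of all genes): CDC20 (0.65), UBE2C (0.43), TPX2 (0.36) and KIF23 (-0.66). With the experiment as the block, added after seeing the data, UBE2C (0.43) and BIRC5 (0.35) were higher and KIF23 (-0.65) lower (5.95% and 9.86% of all genes).

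The other cell cycle genes moved in both directions with NVP-2 in T>C reads, on the same relative scale. Of all genes 12.9% were called higher and 17.6% lower in AsPC-1, and 12.4% and 14.2% in T3M-4. Of 47 other mitotic genes 5 were higher and 13 lower in AsPC-1 and 10 and 7 in T3M-4, with SMC4, a condensin subunit, lower in both (-2.23 and -2.36). Of 35 S phase genes 6 were higher and 11 lower in AsPC-1 and 7 and 10 in T3M-4, among them CDC45, a subunit of the replicative helicase, which was higher in both (1.92 and 2.00). Of 18 regulators 1 was higher and 6 lower in AsPC-1, and 2 and 1 in T3M-4.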

How the data were processed

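SLAM-seq libraries of AsPC-1 and T3M-4 cells were prepared from RNA 3′ ends after a 2 h label. The authors mapped reads to hg38 with slamdunk and counted them over GENCODE v44 3′ UTR exons, and deposited raw counts per gene of T>C reads and of all reads for each library. Genes were matched by name, and samples were grouped by their labels. The members and the other gene lists were chosen with earlier results of these data known. The AsPC-1 dTAG all-read column of library 3.1 was left out because it holds the T>C values of another library (61 of 62 libraries have both measures), and 18 unnamed columns were empty.

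T>C counts and all-read counts were tested with edgeR 4.0.16 (R 4.3.3; filterByExpr, TMM, quasi-likelihood). Treatment comparisons had no experiment or replicate term except where a block is named, so in T3M-4 their spread includes that between experiments. CPM values are scaled by TMM within each comparison. The labelled share was tested with limma 3.58.1 on log2((T>C + 0.5)/(unlabelled + 0.5)) for genes with a mean of at least 100 reads, as it stands and centred on the median gene of each library (relative labelled share). P-values were adjusted over all genes (Benjamini-Hochberg, threshold 0.05). Members named in the text were a panel with 1 or 2 genes per role, every member called in a treatment comparison (or the 3 of smallest p in each direction, or the smallest p where none was called) and the 3 most extreme in share or in spread between controls. Other members are named for their values, chosen after these were seen. Scripts were tested on simulated counts with known log2 changes of 0.5, 1 and 2, drawn with the spread of each comparison. The changed genes were drawn at random from all genes above a read minimum, so recovery for the members alone was not tested.

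Alternatives were DESeq2 1.42.0, other size factors, scaling to all reads, no filter, another pseudocount or read minimum, a replicate block, other controls, single experiments and leaving out libraries. The check of pairing was the correlation of the deviations of libraries with the same number. Every pair was over 0.1 for dTAG in AsPC-1 (0.26 to 0.54 over 10 pairs), dTAG in T3M-4 (0.17 to 0.45), CB-6644 in T3M-4 (0.16 to 0.43) and CB-6644 at 12 h (0.33 to 0.65), and these were taken as paired, although the own number was the best match in only 3 of 10, 2 of 4, 1 of 4 and 1 of 4 pairs. Libraries held 2240998 to 27982537 T>C reads.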

Additional observations from a re-analysis of the deposited data

Results flagged for a closer look

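SGO1 in 1 AsPC-1 DMSO 4 h library (experiment 1, library 3) was at 11.8 CPM of T>C reads, while the other 4 libraries of its group were at 20.9 to 22.6 CPM, a gap that stands apart by Dixon's criterion. It was the 1 such value among 56 groups of 4 to 10 libraries tested. Chance gives about 1 such value for every 20 groups tested, so 1 among 56 is not more than chance gives. The 4 NVP-2 libraries, at 1.22 to 7.18 CPM, were below it too.

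CKAP2 was called in the test of the difference between the lines after NVP-2. Its relative labelled share differed by -0.72 in AsPC-1 (limma adjusted p = 0.0455) and by 0.46 in T3M-4 (limma adjusted p = 0.184, not called). The change was higher in T3M-4 by 1.19 ± 0.31 on the log2 odds scale (limma interaction of line and treatment, adjusted p = 0.037 over all genes). The test was added after seeing the data. It called 1.56% of all genes higher and 2.91% lower in T3M-4, so a call for a single member does not set the members apart from other genes. In AsPC-1 every NVP-2 library was in another batch than its DMSO controls, so the part of the batch cannot be told apart.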

How the results depend on the processing

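Of the counts of members called, 331 under an alternative were within 1.5 times the reported count and 33 were not; of single members, 367 kept their direction and side of the threshold, 38 lost the call and 5 turned. With T>C reads scaled to all reads, 41 members were called after NVP-2 in each line, all lower, and the direction turned for MKI67 (-2.39) and CCNB2 (-2.11) in AsPC-1 and for CCNB2 (-1.23), NUF2 (-1.64) and CENPA (-1.63) in T3M-4, by the construction of that scaling. With the replicate block, where numbers paired the libraries, dTAG in AsPC-1 had 1 member called in T>C reads (CDC20), and the block changed no other count of calls among the paired comparisons. Not every pair correlated over 0.1 for NVP-2 in AsPC-1, where numbers crossed batches, for NVP-2 in T3M-4, where they shared experiment and batch, and for CB-6644 at 4 h in AsPC-1 (lowest -0.09, 0.08 and -0.08). There the block gave 0 members in all reads and 6 in the relative labelled share for NVP-2 in AsPC-1, and 4 in all reads in T3M-4, where the experiment block gave 3. The lower labelled share with dTAG in AsPC-1 was called in 0 members without experiment 1 and in 8 without experiment 2. DESeq2 called 5 members in all reads after NVP-2 in AsPC-1. In the relative labelled share after NVP-2, a pseudocount of 5 gave 24 members in AsPC-1 and 12 in T3M-4, and a minimum of 1000 reads gave 10 in T3M-4. The causes of these changes were not tested. The share of all genes called is not given for DESeq2, another pseudocount or read minimum, or left-out libraries and experiments. Those counts therefore show how stable the calls were and not how members compare with other genes.

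Leaving out 1 library at a time gave 0 to 5 members in all reads and 6 to 13 in the relative labelled share after NVP-2 in AsPC-1, with 6 without DMSO 1.1 or 2.2 and 7 without DMSO 1.2 or 2.1. In T3M-4 it gave 3 to 8 in T>C reads, 0 to 1 in all reads and 2 to 9 in the relative labelled share. Without either DMSO library of experiment 1 the T>C count in T3M-4 was 3. For the T3M-4 experiments it gave 25 to 31 members in all reads and 11 to 13 in T>C reads. Few T>C reads after NVP-2 limit the precision of single members there.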
